A study of Mus musculus with 48 samples.

Results

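Choroid plexus epithelium secretes cerebrospinal fluid into the brain's ventricles, and 10 genes that mark it were followed across the brains of Per3 knock-in and wild-type mice. The genes were Ttr, Kcne2, Folr1, Kl, Clic6, Aqp1, Otx2, Sostdc1, Slc4a5 and Cldn2. They were measured by the probes whose RefSeq accession belongs to one of these genes, 13 probes out of 41174 probes and 18883 named genes on the array. Folr1, Clic6 and Slc4a5 had 2 probes each and the other genes had 1. A gene was counted by its tested probe with the highest mean level in the tissue. In hypothalamus all 10 genes were tested, and in cortex 6 were.

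The mice were sleep deprived for 12 h during the light phase, and all groups received this treatment, so there was no undisturbed control. Per3 5/5 mice (named Boxhill in the labels) and Per3 4/4 mice (named Coach) carried human exon 18 of PER3, with the 5-repeat or the 4-repeat form of its tandem repeat, in place of the mouse exon. Wild-type (WT) mice carried mouse Per3 and came from the same breeding on a C57BL/6 background. Each genotype had 8 mice, and RNA from the frontal cortex and the hypothalamus of each of the 24 mice was hybridised to its own 1-colour array, 48 arrays in all. The human exon had been brought into use by a ubiquitously expressed Cre that was then bred out, so the knock-in alleles are not limited to a cell type. Tissue blocks were dissected, and choroid plexus was neither targeted nor purified.

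The epithelium works as a polarised pump. Sodium, bicarbonate and chloride are moved from blood to ventricle, water follows through the channel Aqp1, and the potassium channels that balance this traffic include KCNQ1 complexes whose regulatory subunit is encoded by Kcne2. Ttr encodes transthyretin, the carrier of thyroxine and of retinol-binding protein. Several of the 10 genes are also used elsewhere in the brain or next to it, in ependyma, pituitary or neurons, so a bulk RNA sample does not assign their signal to one cell type.

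Levels are given as log2 of the processed signal minus log2 of the 75th percentile of that array, so a level of 0 is the array's 75th percentile. They compare the same probe between arrays and say nothing about one gene against another. Differences between groups are differences of these log2 levels. The array's brightness differed between genotypes: the 75th percentile was 1266 ± 180 units (SD, n = 8) in WT cortex, 908 ± 139 in Per3 5/5 and 745 ± 267 in Per3 4/4, and 1505 ± 238, 1048 ± 113 and 928 ± 395 in hypothalamus. No spot was saturated. Scanning took 3 days, and only the third had mice of every genotype. WT mice were scanned on day 2 (5 mice) and day 3 (3 mice), Per3 5/5 mice on day 1 (4) and day 3 (4), and Per3 4/4 mice on day 1 (4), day 2 (3) and day 3 (1).

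Promoter sequences are shown for 4 of the genes because they recur below: Kcne2 gives the set its name, Kl and Cldn2 varied together in hypothalamus, and Otx2 encodes the transcription factor that specifies the choroid plexus. RefSeq promoters of build GRCm38.p6 (250 bases before to 50 after the start) were found for 6 of the 10 genes. They were searched on both strands for TAATCC, the core letters of the OTX2 motif, and each match is in capitals. Of 32851 promoters of this length, 7.06% hold the motif. Among the 10 promoters of these 6 genes it stood in 1, at base 40 of the promoter of 1 of 4 Otx2 starts, on the reverse strand as GGATTA. A match is only a match of letters. The sequences run 5′ to 3′ on the gene's strand.

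Kcne2, first start, chr16:92292139-92292438, plus strand: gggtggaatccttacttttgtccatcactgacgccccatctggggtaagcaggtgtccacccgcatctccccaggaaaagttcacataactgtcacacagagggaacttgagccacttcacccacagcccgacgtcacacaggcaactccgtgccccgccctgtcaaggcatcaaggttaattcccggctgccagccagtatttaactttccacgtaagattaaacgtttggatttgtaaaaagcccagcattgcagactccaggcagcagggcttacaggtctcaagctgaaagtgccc

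Kl, chr5:150952357-150952656, plus strand: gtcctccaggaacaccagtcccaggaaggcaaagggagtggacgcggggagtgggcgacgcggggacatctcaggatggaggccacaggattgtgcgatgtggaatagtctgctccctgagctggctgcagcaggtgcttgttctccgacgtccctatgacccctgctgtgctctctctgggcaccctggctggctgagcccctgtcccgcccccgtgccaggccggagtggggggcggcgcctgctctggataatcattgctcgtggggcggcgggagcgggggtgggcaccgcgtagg

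Cldn2, chrX:139800558-139800857, plus strand: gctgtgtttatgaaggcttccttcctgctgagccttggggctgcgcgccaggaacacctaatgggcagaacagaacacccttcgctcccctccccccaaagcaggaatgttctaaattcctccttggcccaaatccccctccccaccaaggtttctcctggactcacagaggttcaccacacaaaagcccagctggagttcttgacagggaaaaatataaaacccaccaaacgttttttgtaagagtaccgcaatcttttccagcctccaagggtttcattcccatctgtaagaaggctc

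Otx2, the start with the motif, chr14:48665060-48665359, minus strand: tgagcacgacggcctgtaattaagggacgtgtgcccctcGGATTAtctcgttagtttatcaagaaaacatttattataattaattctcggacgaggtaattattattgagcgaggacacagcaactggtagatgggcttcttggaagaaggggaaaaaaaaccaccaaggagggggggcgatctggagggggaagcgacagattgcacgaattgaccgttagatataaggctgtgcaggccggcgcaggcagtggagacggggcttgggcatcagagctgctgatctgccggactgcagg

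The GC content was 53.0% in the Kcne2 promoter, 67.3% in that of Kl, 51.3% in that of Cldn2 and 51.0% in that of Otx2, against a median of 52.7% over all promoters of this length.

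Not all of the 10 genes were measurable in both tissues. The probe of Ttr was well above its local background on 16 of 48 arrays, and its signal stayed between 2.28 and 71.1 units. Of those, 14 were hypothalamus arrays. In hypothalamus it was above background on 8 of 8 WT arrays, 4 of 8 Per3 4/4 arrays and 2 of 8 Per3 5/5 arrays, so Ttr entered the tests only through WT. Kcne2 was above background on 24 of 48 arrays, with signals from 1.03 to 64.6 units, and 22 of these were hypothalamus arrays. Cldn2, a claudin that makes tight junctions permeable to cations, was above background on 22 arrays, none of them cortex. Otx2 was above background on 25 arrays, with 1 of them cortex. The main probes of Folr1, Kl, Clic6, Aqp1 and Sostdc1 were above background on all 48 arrays, and that of Slc4a5 on 45. The dimmer second probe of Slc4a5 was above background on 12 arrays and was tested in neither tissue.

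**Figure D1:**
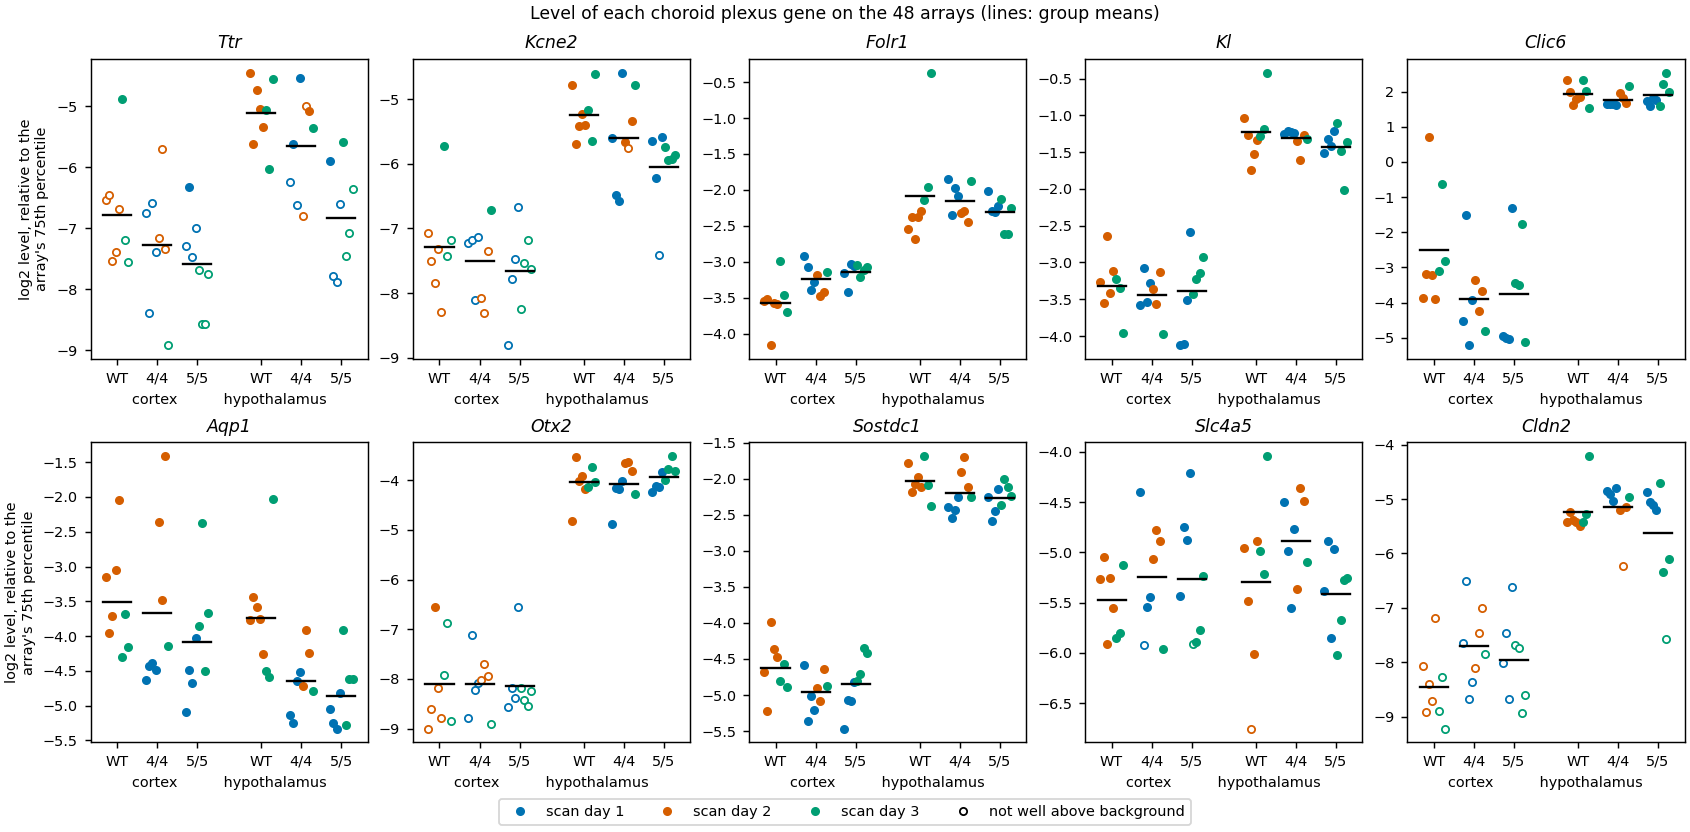
Log2 level of each gene (vertical axes, relative to the array's 75th percentile) on the 8 arrays of each genotype in cortex and hypothalamus, 1 point per array, coloured by scan day, with open points where the probe was not well above background and lines at group means. Ttr, Kcne2, Otx2 and Cldn2 are mostly open in cortex, and in the panels of Folr1, Kl, Slc4a5 and Cldn2 a WT hypothalamus array is highest.

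The plot of levels by array shows an array that stands apart before any comparison. In hypothalamus WT replicate 8, Folr1 was at -0.37 where the other 23 arrays lay between -2.68 and -1.85. Kl was at -0.42 against a highest value of -1.04 elsewhere, Aqp1 at -2.03 against -3.44, Cldn2 at -4.21 against -4.71 and Slc4a5 at -4.04 against -4.36. These 5 genes were each at their highest of all 24 hypothalamus arrays there, and the second probe of Folr1 was too (-3.91 against -4.43). Ttr (-4.55), Kcne2 (-4.61), Otx2 (-4.04) and Sostdc1 (-2.38) lay inside the range of the other arrays, and Clic6 was at its lowest (1.54 against 1.58). On the same array the summed level of the cortex list was 1.79 against 2.07 to 2.76. The markers of the pituitary gland, which hangs below the hypothalamus, were high there. The summed level of 7 tested pituitary markers (Prl, Gh, Pomc, Tshb, Cga, Lhb and Fshb) was 911 times the array's 75th percentile there, against 5.47 to 72.9 on the other 23. The summed levels of the ependyma and of the meninges and stroma lists were inside the range of the others (41.2 and 218). The part of pituitary tissue in the 5 high values was not tested, and values without this array, a comparison chosen after seeing the data, stand beside the results below.

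**Figure D2:**
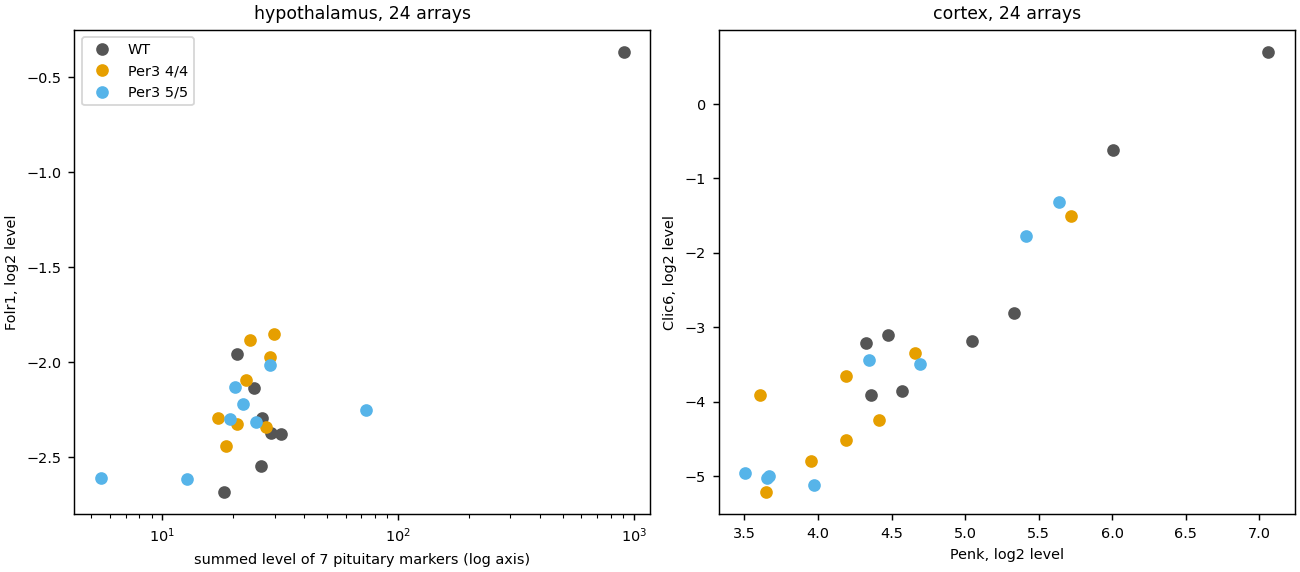
Left, Folr1 level (log2) against the summed level of 7 pituitary markers (log axis, in units of the array's 75th percentile) on the 24 hypothalamus arrays. Right, Clic6 level against the level of Penk (both log2) on the 24 cortex arrays, with points coloured by genotype. WT replicate 8 lies alone at 911 on the left, and the 5 cortex arrays with the highest Clic6, from -1.78 to 0.70, are also the 5 with the highest Penk.

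The tissue difference was the largest contrast for most of the genes. In WT mice 8 of the 10 genes were higher in hypothalamus than in cortex by limma at an adjusted p under 0.05, where 28.1% of all probes tested were called higher. In Per3 4/4 mice 8 were higher, against 27.1% of probes, and in Per3 5/5 mice 7 were higher, against 25.6%. The median difference over the 10 genes was 2.07, 2.02 and 1.79, where the median of all probes was 0.03, 0.02 and -0.02. Ttr, Kcne2, Otx2 and Cldn2 entered these tests only through hypothalamus groups. Their probes were above background on 2, 2, 1 and 0 of 24 cortex arrays. The filter thus favoured a higher value in hypothalamus for them, and their share of the counts and medians is no separate evidence. Compared as groups, the blocks went with their labels. In each genotype 9 of 10 hypothalamus markers were higher and 1 lower in hypothalamus, and 8 of 8 cortex markers were lower. These counts do not speak for single arrays such as WT replicate 8. In bulk tissue, more cells of a type and more RNA per cell cannot be told apart.

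Clic6, an intracellular chloride channel protein of secretory epithelia, had a difference of 5.67 ± 0.51 (SE) in Per3 5/5, 5.68 ± 0.51 in Per3 4/4 and 4.44 ± 0.51 in WT (limma, adjusted p = 3.14e-13, 2.91e-13 and 3.41e-10). It was higher in hypothalamus in 24 of 24 mice, by 0.94 to 7.11 within a mouse. In hypothalamus its level was narrow, from 1.54 to 2.34 with a median of 1.91 in WT, from 1.63 to 2.16 with a median of 1.66 in Per3 4/4 and from 1.58 to 2.54 with a median of 1.79 in Per3 5/5. The 3 ranges overlapped.

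Otx2, the homeobox factor named above, was at -4.04 ± 0.38 (SD, n = 8) in WT hypothalamus and at -8.10 ± 0.93 in WT cortex, with a difference of 4.06 (adjusted p = 5.97e-17, limma). Only 1 of the 8 WT cortex arrays was above background for Otx2, so this difference is taken mostly against background. In neither knock-in was any cortex array above background, so only a bound can be given. It was at least 5.13-fold higher in hypothalamus in Per3 4/4 (adjusted p = 8.13e-17) and at least 5.54-fold higher in Per3 5/5 (adjusted p = 1.80e-17), taking on each cortex array the higher of the probe's own signal and the lowest signal that was well above background. Computed the same way, the WT value was 6.85-fold, and the fitted WT difference is not to be set against the bounds of the knock-ins. That lowest signal was taken over all probes of an array, and arrays differed in brightness. The folds are thus not to be compared between genotypes. The adjusted p beside each bound or fold, here and below, is from the limma fit without this rule and does not test it.

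Sostdc1, a secreted antagonist of BMP and WNT signals, differed by 2.59 ± 0.14 (SE) in WT, 2.76 ± 0.14 in Per3 4/4 and 2.57 ± 0.14 in Per3 5/5 (adjusted p = 2.98e-20, 3.22e-21 and 4.10e-20, limma). Kl, which encodes klotho, the co-receptor for FGF23 that the choroid plexus also sheds, differed by 2.09 ± 0.17, 2.13 ± 0.17 and 1.95 ± 0.17. Folr1, the folate receptor that carries folate into cerebrospinal fluid, differed by 1.48 ± 0.18, 1.08 ± 0.18 and 0.83 ± 0.18. By these probes the 3 genes were higher in hypothalamus in 24 of 24 mice. The dimmer second probe of Folr1 was higher in 8 of 8 WT, 6 of 8 Per3 4/4 and 7 of 8 Per3 5/5 mice, with differences of 0.67 (adjusted p = 0.00391), 0.52 (adjusted p = 0.0248) and 0.25 (adjusted p = 0.315, limma). Without WT replicate 8 the WT differences of Folr1 and Kl were 1.21 (adjusted p = 2.30e-11) and 1.88 (adjusted p = 5.45e-13).

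Kcne2 was at -5.24 ± 0.39 (SD, n = 8) in WT hypothalamus and at -7.29 ± 0.75 in WT cortex, a difference of 2.05 ± 0.30 (SE, adjusted p = 1.32e-07, limma), and at -5.60 ± 0.71 and -7.51 ± 0.57 in Per3 4/4, a difference of 1.91 ± 0.30 (adjusted p = 5.58e-07). Only 1 of 8 cortex arrays was above background in each of these genotypes, so both differences are taken mostly against background, and with the rule used for Otx2 they came to 2.71-fold and 1.75-fold. In Per3 5/5 none was, and the same rule gave Kcne2 as 1.28-fold higher in hypothalamus (adjusted p = 1.24e-05). There 7 of 8 hypothalamus arrays read it above background, so this is not a strict bound. Every one of the 24 mice had the higher value in hypothalamus, by 0.07 to 3.15. Cldn2 was at least 3.09-fold higher in hypothalamus in WT (adjusted p = 2.29e-11). By the same rule it was 2.45-fold higher in Per3 4/4 and 1.72-fold higher in Per3 5/5 (adjusted p = 9.45e-09 and 7.35e-08). In each knock-in 7 of 8 hypothalamus arrays read Cldn2 above background, so these 2 folds are not strict bounds. The fitted WT difference of 3.22 was 2.97 without WT replicate 8. Ttr was higher in hypothalamus by 1.67 ± 0.40 in WT (adjusted p = 0.000439, limma) and by 1.62 ± 0.40 in Per3 4/4 (adjusted p = 0.000633). In Per3 5/5 it differed by 0.75 (95% interval -0.06 to 1.56, adjusted p = 0.117). Only 4 of 8 Per3 4/4 hypothalamus arrays read Ttr above background, so the 1.65-fold that the rule used for Otx2 gives there is not a bound. Of the cortex arrays 1 of 8 in WT, 0 of 8 in Per3 4/4 and 1 of 8 in Per3 5/5 read Ttr above background. By the rule used for Otx2 the value was 2.57-fold higher in hypothalamus in WT and 1.36-fold lower in Per3 5/5. Only 2 of 8 Per3 5/5 hypothalamus arrays read Ttr above background. Within mice, Ttr was higher in hypothalamus in 7 of 8 WT, 7 of 8 Per3 4/4 and 6 of 8 Per3 5/5 mice. With normexp background correction, which adds an offset of 50 units to every spot, Kcne2 differed by 0.07 in Per3 5/5 and by -0.01 in Per3 4/4, and Ttr by -0.11 in Per3 4/4 and 0.42 in WT, none of them called.

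Aqp1 and Slc4a5 did not share this pattern. Slc4a5, a sodium bicarbonate cotransporter of the apical membrane, differed by 0.18 in WT (95% interval -0.36 to 0.73), 0.36 in Per3 4/4 (-0.18 to 0.90) and -0.16 in Per3 5/5 (-0.70 to 0.39). Aqp1 was lower in hypothalamus than in cortex in Per3 4/4 (-0.98, adjusted p = 0.0289, limma), in 8 of 8 mice, with differences of -0.77 in Per3 5/5 (adjusted p = 0.0898) and -0.24 in WT (adjusted p = 0.647). Without WT replicate 8 the WT differences were -0.57 for Aqp1 (adjusted p = 0.232) and 0.06 for Slc4a5 (adjusted p = 0.889). The cortex level of Aqp1 ranged widely, from -4.30 to -2.04 with a median of -3.69 in WT, from -4.63 to -1.41 with a median of -4.27 in Per3 4/4 and from -5.09 to -2.38 with a median of -4.26 in Per3 5/5.

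**Figure D3:**
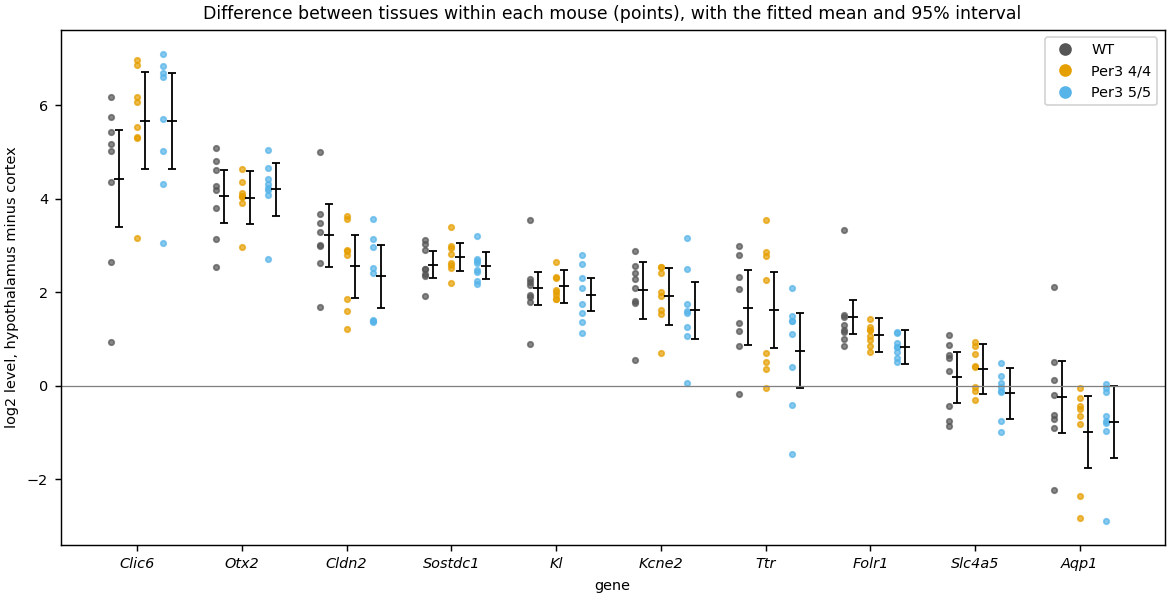
Difference in log2 level between hypothalamus and cortex of the same mouse (points, 8 per genotype) with the fitted mean and its 95% interval (black), for the 10 genes ordered by mean difference. The intervals are from the fit that did not pair the tissues of a mouse. Points are coloured by genotype. Clic6, Otx2, Cldn2, Sostdc1, Kl, Kcne2 and Folr1 lie above 0 in every mouse, and Ttr, Slc4a5 and Aqp1 straddle it.

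Among 29 tested genes of a longer choroid plexus list that holds none of the 10, 16 were higher and 6 lower in hypothalamus in WT, 17 and 4 in Per3 4/4 and 14 and 5 in Per3 5/5, with medians of 0.49, 0.41 and 0.42. Of 10 ependymal genes, which mark the ciliated cells that line the ventricles, 9, 10 and 10 were higher and none lower, with medians of 3.09, 2.87 and 2.71. Of 16 ion and water transport genes that the epithelium shares with other cells, 5, 5 and 6 were higher and 5, 6 and 6 lower. Beside these counts, 28.1%, 27.1% and 25.6% of all probes were called higher. Without WT replicate 8, about 8330 of 31200 probes were called higher in WT and about 7040 lower, 49.2% in either direction. A list with a share near that of all probes gives no result about its genes.

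In cortex the test of genotype called 1 of the 6 tested genes in each knock-in. Folr1 was higher than in WT by 0.43 ± 0.11 (SE) in Per3 5/5 (adjusted p = 0.0208, limma) and by 0.33 ± 0.11 in Per3 4/4 (adjusted p = 0.0389). Of all probes, 12.4% and 22.5% were called in these comparisons. Its levels ran from -4.16 to -2.98 with a median of -3.56 in WT, from -3.48 to -2.92 with a median of -3.23 in Per3 4/4 and from -3.42 to -3.03 with a median of -3.10 in Per3 5/5. Beside these, the Per3 4/4 call was lost without any one of 10 mice, Per3 4/4 replicate 1, 2, 4, 5 or 8 or WT replicate 1, 3, 4, 5 or 8 (differences between 0.25 and 0.42). The WT median lay below every knock-in array, and WT replicate 6 lay inside the Per3 4/4 range. Its dimmer second probe differed by 0.35 (adjusted p = 0.169) and 0.18 (adjusted p = 0.495). Once scan day was a block, the Folr1 differences were 0.29 and 0.30 (adjusted p = 0.192 and 0.122), neither called, where 0.986% and 7.72% of probes were. With quantile normalization they were 0.30 and 0.27 (adjusted p = 0.0636 and 0.0671). Comparing the knock-ins directly, no gene was called in cortex, where 0% of probes were and 4656 of 29715 had an unadjusted p under 0.05.

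Clic6 had the widest spread between cortex arrays. It ranged from -3.91 to 0.70 with a median of -3.14 in WT, from -5.22 to -1.51 with a median of -4.08 in Per3 4/4 and from -5.12 to -1.31 with a median of -4.23 in Per3 5/5, and the genotype differences of -1.27 and -1.40 from WT were not called (95% intervals -2.69 to 0.16 and -2.83 to 0.02). The 5 highest arrays were WT replicate 3 (0.70), WT replicate 7 (-0.62), Per3 5/5 replicate 4 (-1.31), Per3 4/4 replicate 2 (-1.51) and Per3 5/5 replicate 7 (-1.78), with the other 19 at or below -2.81.

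In hypothalamus the test called Ttr, Aqp1 and Kcne2 lower in Per3 5/5 than in WT, 3 of 10 genes, where 18.8% of probes were called in either direction (16.9% without WT replicate 8, which left 2 of the 3). Ttr ran from -6.02 to -4.45 with a median of -5.05 in WT, from -6.80 to -4.53 with a median of -5.49 in Per3 4/4 and from -7.87 to -5.59 with a median of -6.84 in Per3 5/5. In Per3 5/5, 6 of 8 arrays lay below all WT arrays. The difference was -1.73 ± 0.36 (SE, adjusted p = 0.00344, limma), and it was between -1.90 and -1.58 with any 1 mouse left out. The probe was above background on 8 of 8 WT arrays and on 2 of 8 Per3 5/5 arrays, so the size of this difference rests mostly on background readings and Ttr was tested only because of WT. With each Per3 5/5 array at no less than its lowest signal well above background, the WT mean was 2.42-fold higher.

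Aqp1 ran from -4.58 to -2.03 with a median of -3.76 in WT, from -5.24 to -3.91 with a median of -4.68 in Per3 4/4 and from -5.33 to -3.91 with a median of -4.93 in Per3 5/5. In Per3 5/5, 7 of 8 arrays lay below all WT arrays, and in Per3 4/4, 5 did. The difference was -1.12 ± 0.28 in Per3 5/5 (adjusted p = 0.0105, limma) and -0.91 ± 0.28 in Per3 4/4 (adjusted p = 0.0358), the only gene of the 10 called in Per3 4/4, where 15.1% of probes were. Without WT replicate 8, the array with the high pituitary markers, these were -0.88 (adjusted p = 0.0140) and -0.66 (adjusted p = 0.0561). The Per3 4/4 call was also lost without WT replicate 1, 2 or 3 or Per3 4/4 replicate 1, 2, 3, 4 or 8, with differences between -1.03 and -0.66 over all omissions.

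Kcne2 ran from -5.69 to -4.61 with a median of -5.32 in WT, from -6.57 to -4.59 with a median of -5.63 in Per3 4/4 and from -7.41 to -5.59 with a median of -5.90 in Per3 5/5. In Per3 5/5, 6 of 8 arrays lay below all WT arrays. The difference was -0.80 ± 0.27 (adjusted p = 0.0433, limma) in Per3 5/5 and -0.35 ± 0.27 (adjusted p = 0.372) in Per3 4/4. The Per3 5/5 call was lost without any one of 11 mice, Per3 5/5 replicate 2, 3, 6, 7 or 8 or WT replicate 1, 3, 4, 5, 6 or 8, with a highest adjusted p of 0.0880 and differences between -0.87 and -0.61. Per3 5/5 replicate 3, at -7.41, was the lowest array, with a signal of 5.40 units.

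The other 7 genes were not called in either knock-in in hypothalamus. Clic6 differed from WT by -0.03 in Per3 5/5 (95% interval -0.32 to 0.25) and -0.16 in Per3 4/4 (-0.44 to 0.12), while its dimmer second probe was higher in Per3 5/5 by 0.37 (adjusted p = 0.0406, limma), so the probes of this gene disagree. Sostdc1 differed by -0.23 (-0.48 to 0.01) and -0.16 (-0.41 to 0.08), and Kl by -0.21 (-0.50 to 0.08) and -0.09 (-0.38 to 0.20). Otx2 differed by 0.12 (-0.23 to 0.46) and -0.03 (-0.38 to 0.32). Folr1, Slc4a5 and Cldn2 differed by -0.21, -0.13 and -0.38 in Per3 5/5 and by -0.06, 0.40 and 0.09 in Per3 4/4. Without WT replicate 8 the Per3 5/5 differences were 0.03, 0.05 and -0.24, with the sign of Folr1 and Slc4a5 turned, and those of Per3 4/4 were 0.19, 0.58 and 0.24, with that of Folr1 turned. Kl then differed by -0.09 and 0.03.

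**Figure D4:**
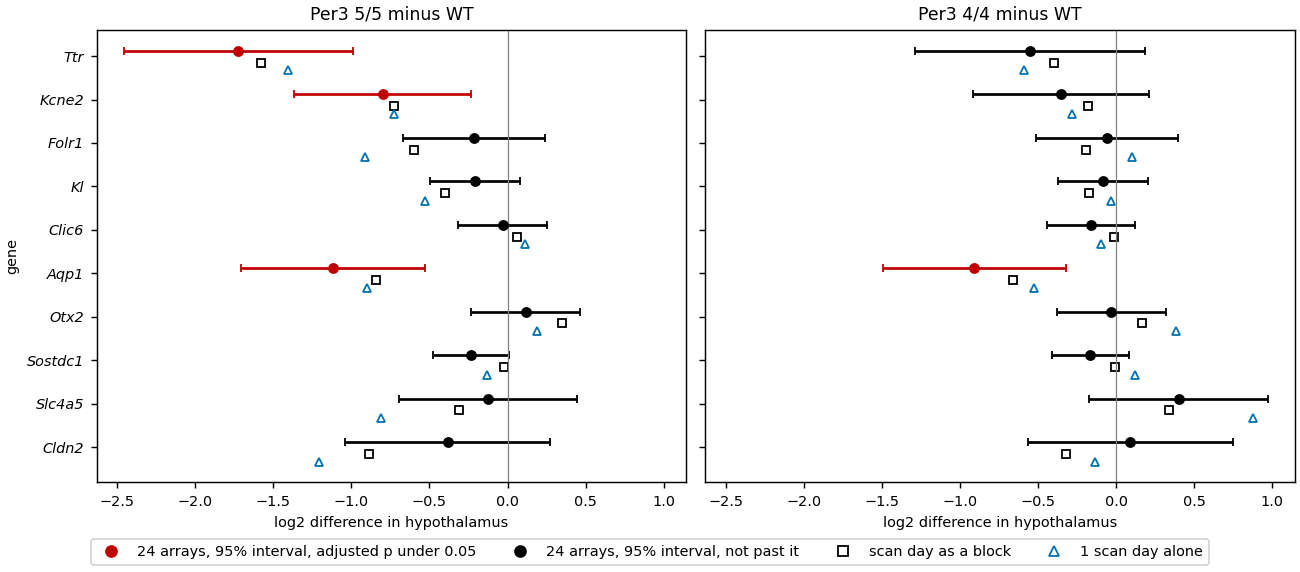
Log2 difference from WT in hypothalamus for the 10 genes in Per3 5/5 (left) and Per3 4/4 (right). Circles with 95% intervals are from all 24 arrays (red where the adjusted p was under 0.05), squares have scan day as a block, and triangles use 1 scan day alone (day 3 for Per3 5/5, day 2 for Per3 4/4). Ttr, Kcne2 and Aqp1 keep their sign in Per3 5/5 under all 3, from -1.73 to -0.72.

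With scan day as a block none of the 10 genes was called, where 2.1% of probes were in Per3 5/5 and 0.745% in Per3 4/4. The differences of Ttr, Aqp1 and Kcne2 in Per3 5/5 were then -1.58, -0.84 and -0.72 (adjusted p = 0.0599, 0.149 and 0.195, limma). On scan day 3 alone, with 4 Per3 5/5 and 3 WT mice, they were -1.41, -0.90 and -0.73 (adjusted p = 0.247, 0.455 and 0.231). With normexp they were -0.19, -0.45 and -0.09, again not called. The direct test of Per3 5/5 against Per3 4/4 called none of the genes in hypothalamus, where 0% of probes were called and 4983 of 30735 had an unadjusted p under 0.05. Ttr was lowest of the 10 there, at -1.17 ± 0.36 (unadjusted p = 0.00306, adjusted p = 0.227).

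No gene had a genotype by tissue interaction past the threshold on the 48 arrays, where 0.016% of probes had one for Per3 5/5 against WT, 0.0032% for Per3 4/4 against WT and 0% for Per3 5/5 against Per3 4/4. The member nearest to the threshold was Folr1 in Per3 5/5 against WT, whose difference in hypothalamus minus that in cortex was -0.64 (95% interval -1.15 to -0.13, limma) and -0.38 without WT replicate 8, where no gene of the 10 was called either. For Ttr it was -0.92 (-2.06 to 0.22) and for Kcne2 -0.43 (-1.29 to 0.43), with cortex signals mostly not above background.

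The longer choroid plexus list, chosen like the others with results of these data known, had 7 of 29 genes lower and 2 higher in Per3 5/5 hypothalamus, where 18.8% of probes were called, and 4 called with scan day as a block, where 2.1% were. The largest differences were in Wfdc2 (-1.70, adjusted p = 0.00917, limma), Ecrg4 (-1.23, adjusted p = 0.00781), Calml4 (-0.98, adjusted p = 0.0163) and Steap1 (-0.71, adjusted p = 0.00244). Of these Calml4 (-1.24, adjusted p = 0.0336) and Steap1 (-0.79, adjusted p = 0.0209) were also called with the block. The 2 that were higher were Slc4a2, which also stands in the transport list, and Ctsd. In Per3 4/4, where 15.1% of probes were called, 3 of the 29 were lower and 2 higher.

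Markers of the cells around the choroid plexus are given beside these values, against 18.8% of probes called and 2.1% with scan day as a block. Of 10 ependymal genes 5 were lower in Per3 5/5 hypothalamus and none higher, 2 were called with the block, and 3 were lower without WT replicate 8, with Tmem212 at -1.06 (adjusted p = 0.0131), Meig1 at -0.83 (adjusted p = 0.00518), Mia at -0.60 (adjusted p = 0.0490) and Dynlrb2 at -0.43 (adjusted p = 0.0440, limma). The summed ependymal level ran from 20.6 to 41.4 with a median of 32.5 in Per3 5/5, from 29.6 to 43.9 with a median of 33.9 in Per3 4/4 and from 27.2 to 41.2 with a median of 39.1 in WT. Of 10 genes of meninges and stroma, Lum (-0.95, adjusted p = 0.0267) and Dcn (-0.62, adjusted p = 0.0277) were lower in Per3 5/5, with summed levels from 109 to 338 against 147 to 242 in WT, and none was called with the block. Of 7 pituitary genes, Tshb was lower (-3.07, adjusted p = 0.00814, and -2.32, adjusted p = 0.00587, without WT replicate 8), and 1 was called with the block. Of 5 genes listed for tanycytes, Lhx2 was lower (-0.41, adjusted p = 0.0101) and none was called with the block. In WT 3 of these 5 were lower in hypothalamus than in cortex and the median difference was -2.93, so these genes are not read as tanycyte markers here. Of 6 endothelial genes Cldn5 was higher (0.45, adjusted p = 0.0142), and of 5 tested blood genes S100a8 (-3.11, adjusted p = 0.00349) and S100a9 (-2.78, adjusted p = 0.00448) were lower. With the block none of the endothelial genes and 2 of the blood genes were called. Of the genes that mark the dissected regions, 1 of 10 hypothalamus genes was lower, 2 of 8 cortex genes were higher and none of 6 thalamus genes was called, and with the block 0, 2 and 0 were called. Shares near those of all probes are no result about a list. The part of these tissues in the lower Ttr, Aqp1 and Kcne2 was not tested.

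Of 16 transport genes, 4 were higher and 1 lower in Per3 5/5 hypothalamus, against 18.8% of probes called, and 2 were called with scan day as a block, against 2.1%. Slc4a2, the anion exchanger of the basolateral membrane, was higher by 0.59 (adjusted p = 0.00168, limma) and Aqp4, the water channel of astrocytes and ependyma, by 0.41 (adjusted p = 0.0342), while Slc4a10, a sodium bicarbonate transporter, had a difference of -0.34 (adjusted p = 0.0241). Kcnq1, whose channel Kcne2 regulates and which was added after the values were seen, had a difference of 0.02 (adjusted p = 0.935). In Per3 4/4, 2 transport genes were higher and none lower, against 15.1% of probes.

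Covariation across mice was measured as the correlation of 2 genes over the 24 arrays of a tissue after each genotype's mean was subtracted, for 45 pairs in each tissue. P values are two-sided, from 100000 permutations, with Benjamini-Hochberg adjustment over all 90 pairs. In hypothalamus 7 pairs passed an adjusted p of 0.05, 5 positive and 2 negative, and Pearson's r over the 45 pairs ran from -0.71 to 0.74 with a median of 0.14. The 10 genes thus did not vary as 1 block.

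Ttr and Kcne2 varied together in hypothalamus, with r = 0.67 (permutation p = 0.00024, adjusted p = 0.00540) and rho = 0.70 (permutation p = 0.00021, adjusted p = 0.00945). Without the 2 arrays farthest from the Ttr median r was 0.71. On scan days 1, 2 and 3, with 8 arrays each, r was 0.78, 0.50 and 0.63, without WT replicate 8 it was 0.65 (adjusted p = 0.0183), and with scan day means also subtracted 0.66 (adjusted p = 0.0087). With normexp it was 0.94, but most hypothalamus pairs passed with that setting, so this rise is not particular to the pair. Its offset of 50 units lies within the signal range of both probes (3.91 to 71.1 for Ttr and 5.40 to 64.6 for Kcne2). Ttr was not above background on 10 of these arrays and Kcne2 on 2, and the part of background in this correlation was not tested. Neither gene's level was related to array brightness at an adjusted p under 0.05 (r with log2 of the 75th percentile = -0.30 for Ttr and -0.01 for Kcne2, rho = -0.22 and 0.06, permutation p = 0.158 and 0.942 for r and 0.302 and 0.772 for rho, adjusted p = 0.441 and 0.942 for r over 20 relations, and r = -0.05 and -0.08 without the 2 farthest arrays). Ttr and Aqp1 had r = 0.53 (permutation p = 0.00577, adjusted p = 0.0472) and rho = 0.53 (permutation p = 0.00794, adjusted p = 0.0715), with r = 0.49 without the 2 farthest arrays and 0.48, 0.44 and 0.72 within scan days, and the adjusted p was 0.0508 without WT replicate 8 and 0.0591 with scan day means also subtracted.

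Other pairs did not involve Ttr or Kcne2. Kl and Cldn2 had r = 0.72 and rho = 0.63 (permutation p = 0.00023 and 0.00107, adjusted p = 0.00540 and 0.0161), and r = 0.52 without the 2 farthest arrays. Within scan days r was -0.50, 0.34 and 0.91, so on day 1 it ran the other way, and without WT replicate 8 r was 0.70 (adjusted p = 0.0196). Folr1 and Kl had r = 0.74 (permutation p = 0.00034, adjusted p = 0.00612) but rho = 0.48 (permutation p = 0.0189, adjusted p = 0.121), r = 0.37 without the 2 farthest arrays, within-day values of -0.38, 0.21 and 0.87, and r = 0.46 without WT replicate 8 (adjusted p = 0.171), so it rested on that array. Day 3 held WT replicate 8, with the highest Folr1, Kl and Cldn2, and Per3 5/5 replicate 7, with the lowest Kl (-2.01), the lowest Cldn2 (-7.57) and the lowest pituitary sum (5.47).

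Clic6 went with Sostdc1 and against Cldn2. Clic6 and Sostdc1 had r = 0.61 and rho = 0.57 (permutation p = 0.00154 and 0.00357, adjusted p = 0.0185 and 0.0402), with r = 0.57 without the 2 farthest arrays, 0.14, 0.52 and 0.77 within scan days, and an adjusted p of 0.0508 without WT replicate 8. Clic6 and Cldn2 had r = -0.71 and rho = -0.72 (permutation p = 0.0001 and 0.00019, adjusted p = 0.00450 and 0.00945), with r = -0.59 without the 2 farthest arrays, -0.43, -0.08 and -0.84 within scan days and -0.67 without WT replicate 8 (adjusted p = 0.0183). Sostdc1 and Cldn2 had r = -0.61 and rho = -0.67 (permutation p = 0.00142 and 0.00047, adjusted p = 0.0185 and 0.0106), with r = -0.55 without the 2 farthest arrays and 0.37, -0.69 and -0.67 within scan days. Its adjusted p was 0.0508 without WT replicate 8 and 0.162 with scan day means also subtracted, and with normexp r was 0.37. Folr1 and Cldn2 passed only by rank (rho = 0.68, permutation p = 0.00038, adjusted p = 0.0106, against r = 0.55, permutation p = 0.0211, adjusted p = 0.119, and r = 0.56 without the 2 farthest arrays).

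**Figure D5:**
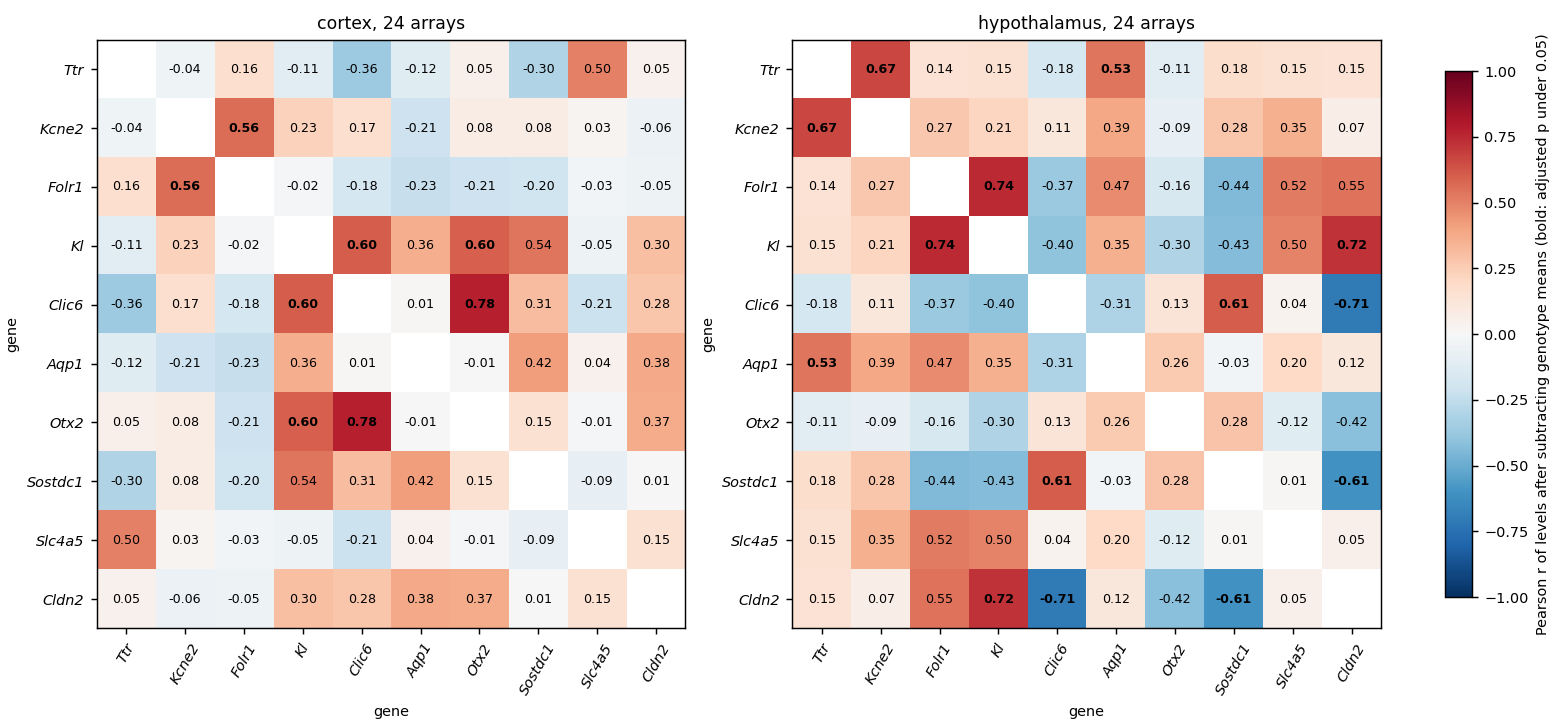
Pearson's r between the levels of each pair of genes over 24 arrays in cortex (left) and hypothalamus (right), after subtracting genotype means, with bold values where the adjusted p was under 0.05. Ttr and Kcne2 (0.67) and Clic6 and Cldn2 (-0.71) stand out in hypothalamus, and Clic6 and Otx2 (0.78) in cortex, where the Ttr and Kcne2 value is -0.04.

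In cortex 4 pairs passed, all positive, and r ran from -0.36 to 0.78 with a median of 0.04. Clic6 and Otx2 had r = 0.78 (permutation p = 1e-05, the smallest that 100000 permutations can give, adjusted p = 0.0009) and rho = 0.65 (permutation p = 0.00091, adjusted p = 0.0161), with r = 0.62 without the 2 farthest arrays and 0.90, 0.94 and 0.46 within scan days. Kl went with both, at r = 0.60 with Clic6 and 0.60 with Otx2 (permutation p = 0.00164 and 0.002, adjusted p = 0.0185 and 0.0200, rho = 0.46 and 0.52 with permutation p = 0.0263 and 0.0109 and adjusted p = 0.148 and 0.0888, and r = 0.51 and 0.49 without the 2 farthest arrays). Of the Kl pairs, the one with Clic6 had r = 0.84, 0.75 and 0.15 within scan days and the one with Otx2 0.79, 0.64 and 0.40. The Otx2 probe was at background on most of these arrays: it read -6.55, -6.55, -6.88 and -7.11 on 4 of the 5 arrays with the highest Clic6, -8.55 on the fifth, and between -9.00 and -7.69 on the 19 with lower Clic6. Kcne2, above background on 2 of the 24 cortex arrays, and Folr1 had r = 0.56 (permutation p = 0.00496, adjusted p = 0.0446) and rho = 0.47 (permutation p = 0.0207, adjusted p = 0.124), with r = 0.41 without the 2 farthest arrays and 0.43, 0.23 and 0.69 within scan days. Without the mouse of WT replicate 8 the adjusted p of Kcne2 with Folr1 and of Kl with Otx2 was 0.0508. Ttr and Slc4a5 passed only by rank (rho = 0.62, permutation p = 0.00185, adjusted p = 0.0238, against r = 0.50, permutation p = 0.0124, adjusted p = 0.0861, and r = 0.62 without the 2 farthest arrays). Cortex Ttr was above background on 2 of 24 arrays. With array brightness, Ttr had r = -0.49 (permutation p = 0.0161) and Slc4a5 r = -0.52 (permutation p = 0.00844), each at an adjusted p of 0.161. By rank, rho was -0.40 and -0.57 (adjusted p = 0.347 and 0.0752). The part of brightness in this pair was not tested.

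Kcne2 and Ttr in cortex had their highest values on the same array. In WT replicate 6, Kcne2 was at -5.72 against at most -6.66 on the other 23 cortex arrays and Ttr at -4.88 against at most -5.70, and both were above background. Folr1 was second highest of 24 there (-2.98). Aqp1, Slc4a5, Sostdc1 and Cldn2 were at -4.30, -5.86, -4.80 and -8.90, with 11 to 20 of the other arrays higher. The same mouse's hypothalamus had Ttr at -5.06 and Kcne2 at -5.17, inside the WT range.

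No gene's level in the hypothalamus was related to its level in the cortex of the same mouse at an adjusted p under 0.05 over the 24 mice and 10 genes. For Ttr, Kcne2, Otx2 and Cldn2 this cannot decide the question. Their cortex probes were above background on only 2, 2, 1 and 0 of 24 arrays. Slc4a5 had the highest r, 0.44 (permutation p = 0.0287, adjusted p = 0.287), with rho = 0.52 (permutation p = 0.00939, adjusted p = 0.0939) and r = 0.41 without the 2 farthest arrays. For Ttr r was -0.09 (permutation p = 0.669, adjusted p = 0.836, rho = -0.11 with permutation p = 0.615 and adjusted p = 0.812, and r = -0.08 without the 2 farthest arrays).

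The genes whose pattern was most like that of Ttr over the 24 hypothalamus arrays were Itgb3bp (r = 0.72), Zfp784 (0.70), Gsta3 (0.70 and 0.69 for 2 probes), Dnajc12 (0.70), Osmr (0.69), Gys2 (0.68), Hc (0.67), Tnfsf10 (0.66) and H3f3a (0.66). Among those most like Kcne2 were Echdc2 (0.76), Gng5 (0.75), Rgs10 (0.74) and Slirp (0.74). None of them is in the longer choroid plexus list, whose closest gene was Slc31a1, a copper transporter, at 0.59 with Ttr and 0.62 with Kcne2. These rankings took the highest r out of 23569 probes and no p was computed. They give an order only, and a shared pattern was not tested. Chosen after the values were seen, the genes most like Folr1 in hypothalamus were Cldn9 (0.94), Lilra6 (0.93), Mc3r (0.93), Oprl1 (0.93) and Krt8 (0.93, also in the longer choroid plexus list), and without WT replicate 8 their r was 0.73, 0.68, 0.65, 0.65 and 0.79.

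Also chosen after the values were seen, the genes most like Clic6 in cortex, out of 22759 probes, were Slc10a4 (0.95), Penk (0.95), Serpina9 (0.94), Nts (0.94) and Lhx8 (0.93). Penk encodes enkephalin, which is abundant in striatal neurons, Lhx8 a factor of basal forebrain cholinergic neurons, Slc10a4 a transporter of cholinergic and monoaminergic vesicles, and Nts neurotensin. None is a marker of choroid plexus. Penk was between 5.41 and 7.06 on the 5 arrays with the highest Clic6 and between 3.50 and 5.33 on the other 19, and Lhx8 between -3.52 and 0.10 against -8.87 to -4.32. The same 5 arrays held the 5 highest values of Penk, Lhx8, Nts and Serpina9. The share of striatal or basal forebrain tissue in these blocks was not tested.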

How the data were processed

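RNA of 24 mice and 2 tissues was labelled with Cy3 and read on 1-colour Agilent arrays. Per the file headers, the deposited scanner files hold processed signal intensity, background subtracted and detrended within each array by Feature Extraction. The authors also deposited a table of log2 values after a 75th-percentile shift. From the values, each probe is centred on its median within a tissue (99.97% of values lay within 0.05 of such a calculation), and 29.07% of cortex entries are blank. Its column medians ran from -0.1037 to 0.09159. It served as an alternative. It holds no columns of other samples.

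Spots of a probe were averaged over 43379 non-control spots, outlier spots left out. Levels were log2 intensity minus log2 of the array's 75th percentile. A probe entered the tests when, in at least 1 group, 6 or more of the 8 arrays read it well above background. Groups were compared two-sided with limma 3.58.1 (R 4.3.3) and Benjamini-Hochberg adjustment over all tested probes, at an adjusted p under 0.05. Genotypes were compared over the 24 arrays of a tissue and tissues over all 48. Correlations used Python 3.11.15 and scipy 1.17.1. The number of arrays limits the precision.

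The members and lists were chosen with earlier results of these data known. Named genes were all members, up to 4 genes of each list with the largest difference between Per3 5/5 and WT in hypothalamus, and the probes whose levels correlated best with Ttr (10) and Kcne2 (5). The lists covered more choroid plexus genes, transport partners, ependyma, tanycytes, meninges and stroma, endothelium, blood, pituitary, hypothalamus, cortex and thalamus. Kcnj13, Rax, Hbb-b1, Hbb-b2 and Pou1f1 had no matched probe. Some genes that the rule names are not reported here. Replicate numbers name the same mouse in both tissues. No source says that they pair mice of different genotypes, though replicates 1 to 4 of Per3 5/5 and Per3 4/4 shared a slide and a scan day by number. Alternatives were normexp, quantile and median centring, other filters, scan day and slide as blocks, a replicate block, the methods' t-test, the mean of a gene's probes and the omission of each mouse. The covariation, tissue and interaction values and list counts without WT replicate 8, and the folds with dim arrays raised to the lowest signal well above background, were added after seeing the data.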

Additional observations from a re-analysis of the deposited data

Results flagged for a closer look

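A value was listed here when the highest or lowest array of a group of 8 lay apart from its nearest neighbour by a share of the group's range above the 95% critical value of Dixon's test. Of 60 combinations of gene, tissue and genotype, 10 met this, and chance lists about 1 in 20 groups. In hypothalamus WT replicate 8 this held for Folr1 (0.686 of the range, at -0.37 against -1.96 for the next array), Aqp1 (0.552, at -2.03 against -3.44) and Cldn2 (0.795, at -4.21 against -5.23). That array also had the summed pituitary level of 911. In hypothalamus Per3 4/4 replicate 6, Kl (0.661, at -1.61) and Cldn2 (0.722, at -6.24) were the lowest of their group. That array was the dimmest of all, with a 75th percentile of 307 units, and its Cldn2 signal was 4.08 units. The part of brightness in these 2 values was not tested.

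In Per3 5/5 hypothalamus, Kcne2 was lowest in replicate 3 (0.65, at -7.41 against -6.23) and Kl in replicate 7 (0.55, at -2.01 against -1.52). In cortex, Ttr was highest in WT replicate 6 (0.591, at -4.88 against -6.46) and Otx2 in Per3 5/5 replicate 4 (0.812, at -6.55 against -8.18). Folr1 was lowest in Per3 5/5 replicate 2 (0.526, at -3.42 against -3.22).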

How the results depend on the processing

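In cortex, 1 of the genes was called in each knock-in against WT. The Per3 5/5 count was 3 with normexp and 0 with quantile normalization, median centring, scan day as a block, slide as a fixed block or 1 scan day alone. The Per3 4/4 count was 3 with normexp and 0 under those settings, with slide as a random block, the replicate block, the methods' t-test or the mean of a gene's probes. Of 29715 cortex probes, normexp called 9319 in Per3 5/5 and 16259 in Per3 4/4. Quantile normalization called 3151 and 6205, median centring 3423 and 5171, and scan day as a block 293 and 2294. The fixed slide block called 0 and 0, and 1 scan day alone 1 and 164. In Per3 4/4, slide as a random block called 5403 probes, the replicate block 6899 and the methods' t-test 8844. The mean of a gene's probes called 6695 of 29713. In hypothalamus the Per3 5/5 count of 3 was 1 with the filter on all arrays and 0 with normexp, scan day as a block, slide as a fixed block or 1 scan day alone. The Per3 4/4 count of 1 was 0 under those 4 settings and with no filter, slide as a random block or the methods' t-test. The filter on all arrays left 6 of the 10 genes tested and called 6015 of 26333 probes in Per3 5/5. Of 30735 probes, normexp called 1922 in Per3 5/5 and 1872 in Per3 4/4. Scan day as a block called 644 and 229, 1 scan day alone 1 and 5, and the fixed slide block 0 and 0. In Per3 4/4, slide as a random block called 2962, the methods' t-test 6315, and no filter 3528 of 41174. With normexp, 5 genes were higher in Per3 4/4 hypothalamus than cortex, with the Ttr difference at -0.11 and that of Kcne2 at -0.011, and 27 pairs in cortex and 25 in hypothalamus passed, with Sostdc1 and Cldn2 at r = 0.37 in hypothalamus. Normexp also moved the median of all probes to 0.15 and 0.23 in the cortex comparisons with WT. The causes were not tested.

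With 1 mouse left out the counts ran from 1 to 1 and 0 to 1 in cortex and from 2 to 3 and 0 to 1 in hypothalamus, for Per3 5/5 and Per3 4/4 against WT. Without WT replicate 8, 2 pairs passed in cortex and 3 in hypothalamus, 8 genes were higher in WT hypothalamus than cortex and 0 had an interaction. Same-numbered mice of different genotypes had deviations that correlated at -0.42 to 0.52, and in no comparison were all 8 pairs over 0.1. Replicates 1 to 4 of Per3 5/5 and Per3 4/4 shared slides by number. With the replicate block the counts were 1 and 0 in cortex and 3 and 1 in hypothalamus. The mouse as a block changed no call between tissues. Low signal limits Ttr, Kcne2, Otx2 and Cldn2, whose cortex levels are bounds or near background.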
